A study of Drosophila melanogaster with 2 samples.

Results

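The odorant receptor (Or), gustatory receptor (Gr) and ionotropic receptor (Ir) genes of Drosophila melanogaster were examined for binding of Adf1, a transcription factor of the MADF domain family. Members were the protein-coding genes whose symbol is Or, Gr or Ir followed by a number and a letter. There were 179 of them among 13968 protein-coding genes, made up of 59 Or, 60 Gr and 60 Ir genes with 196 transcription start sites (TSSs) in all. The same naming also covers 7 annotated pseudogenes, which were not counted as members.

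Whole embryos of 0 to 24 h from a transgenic strain making Adf1 fused to eGFP, a green fluorescent protein, were used for chromatin immunoprecipitation and sequencing (ChIP-seq) with an antibody to GFP, in 1 group of 2 biological replicates. Both replicates carried the fusion, and the sources used here do not state the promoter or genomic position of the transgene. No untreated or tag-free sample was analysed here, so no background was measured beside these values. The data were lists of peaks, the stretches where the authors called enrichment over a control, each with a summit, its highest point, on genome build dm6.

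Receptors of these families are membrane proteins by which sensory neurons detect airborne and contact chemicals, temperature and humidity. Odorant receptors work together with the co-receptor Orco, most ionotropic receptors with the co-receptors Ir8a, Ir25a or Ir76b, and gustatory receptors detect sugars, bitter compounds or carbon dioxide. Each gene is typically active in a small set of sensory neurons, in the larva or the adult, and most lie alone or in small groups scattered along the arms. In whole embryos, binding in few cells and weak binding in many cells cannot be told apart.

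Adf1 summits were nearly absent from the starts of these genes. Here a gene is called bound where at least 1 of its TSSs had a summit no more than 500 bp away. In the conservative list of both replicates, which holds 4370 summits on the chromosome arms, 0 of 59 Or genes, 1 of 60 Gr genes and 0 of 60 Ir genes were bound. That is 0.559% of receptor genes (95% Wilson interval 0.0987% to 3.10%), against 18.9% of all protein-coding genes tested in this list. A count of 0 leaves room for a share of 5.08% in the Or and 5% in the Ir family. The single bound member was the gustatory receptor gene Gr97a, and its summit lay nearer to the start of another gene, CG5521.

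Of all positions on the 7 arms 2.85% lay within 500 bp of a conservative summit, a share above that of receptor genes but inside its interval. No test across genes was made: genes are not replicates, neighbours in a cluster share their surroundings, and the Wilson intervals cover counting error only. The peak lists hold no read counts, so the depth behind them is unknown.

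The sequences around the summits on which the receptor counts turn are shown first. The peak at Gr97a spans chr3R:26966725-26967234, and its summit lies inside the first exon of CG5521, so the 100 bases before the start of CG5521, which that peak covers, and the 100 bases before the start of Gr97a are given. The other windows hold a summit and 50 bases to each side of it, for the summit nearest to Or88a, the closest Or gene, and for the ranked-list summits at Gr77a and Ir75d, the 2 members with a summit in the ranked list of each replicate. All are from the reference assembly, Release 6, written 5′ to 3′, and none holds the letters GCNGCNGC (N for any base) described further on, so no base is in capitals.
CG5521, before the start, chr3R:26966830-26966929, forward strand: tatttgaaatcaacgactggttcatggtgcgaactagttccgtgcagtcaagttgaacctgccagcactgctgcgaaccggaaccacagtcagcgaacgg
Gr97a, before the start, chr3R:26966486-26966585, reverse strand: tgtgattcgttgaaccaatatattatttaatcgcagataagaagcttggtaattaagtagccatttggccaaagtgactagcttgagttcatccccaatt
Or88a, around the summit, chr3R:14108799-14108899, forward strand: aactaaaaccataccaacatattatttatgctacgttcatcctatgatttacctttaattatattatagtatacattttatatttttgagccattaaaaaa
Gr77a, around the summit, chr3L:20739378-20739478, forward strand: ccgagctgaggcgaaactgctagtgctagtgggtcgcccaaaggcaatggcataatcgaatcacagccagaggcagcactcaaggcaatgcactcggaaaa
Ir75d, around the summit, chr3L:18910982-18911082, forward strand: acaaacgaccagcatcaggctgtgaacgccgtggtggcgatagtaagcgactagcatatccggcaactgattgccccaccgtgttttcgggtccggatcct

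Gr97a, FBgn0041224, lies on the reverse strand at chr3R:26965124-26966485. Its summit in the conservative and the optimal list was at position 26966980, which is 495 bp upstream of its only TSS and 5 bp inside the limit. CG5521 starts 445 bp from Gr97a and runs the other way, and the summit was 50 bp past that start, in an exon of CG5521. Replicate 1 placed its own summit 587 bp from Gr97a and replicate 2 placed its own at 480 bp. Thus both replicates had a peak at this pair of starts, but in the thresholded list of replicate 1 the summit fell outside the limit. The signal of the peak, a value from the authors' peak caller with no stated scale, was 142 in the conservative list and exceeded that of 46.1% of its peaks. In the ranked lists, which extend below the authors' threshold, the peak had a signal of 79.6 in replicate 1 and 70.3 in replicate 2, higher than 94.5% and 94.1% of the peaks there. Where each summit was given only to the gene with the nearest TSS, no receptor gene of any family was bound. The share of all genes bound under this rule was 15.3%.

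**Figure D1:**
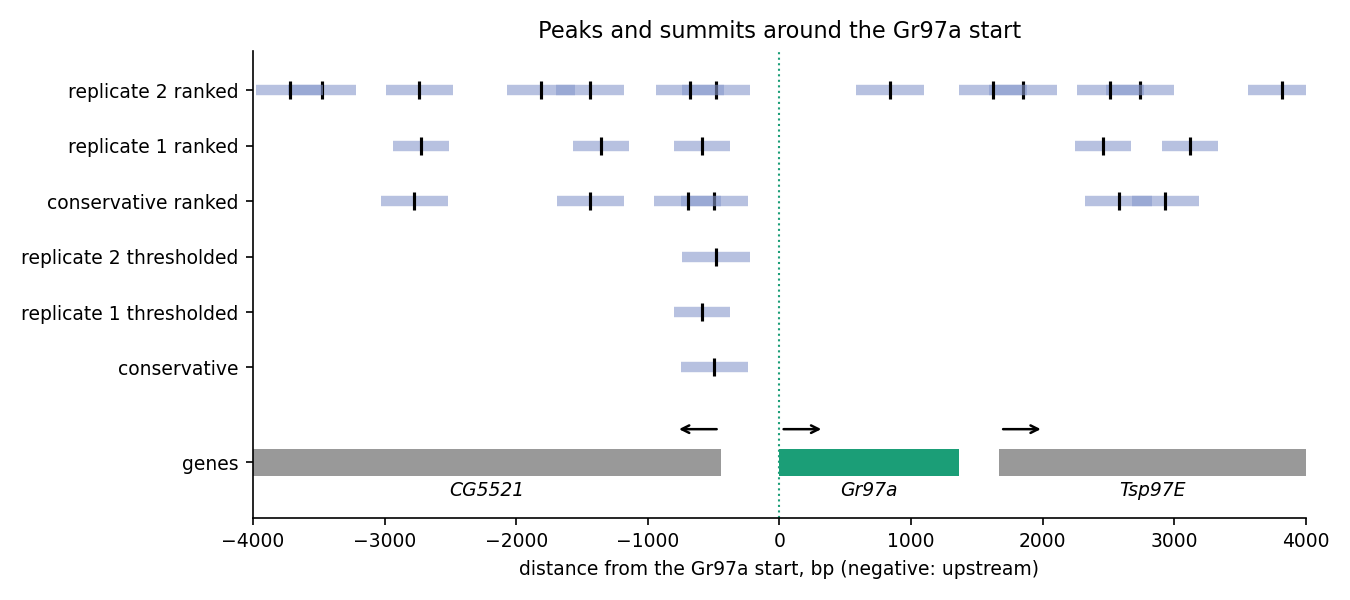
Peaks (blue bars) and summits (black ticks) of 6 lists by distance from the start of Gr97a in bp, with negative values upstream, above the genes of the region (grey and green bars, with arrows for the direction of transcription). The thresholded summits lie 480 to 587 bp upstream of Gr97a, inside the start of CG5521, which begins 445 bp upstream, and the single summit of these 6 lists inside Gr97a, 840 bp downstream of its start, is in the ranked list of replicate 2.

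Just outside the limit lay Or88a, a receptor for odours made by flies, and Ir48c. For Or88a, FBgn0038203, chr3R:14109445-14110823 on the forward strand, the nearest conservative summit was 596 bp upstream, and those of replicates 1 and 2 were 651 and 886 bp away. That summit was 528 bp from the start of CG12402 and lay outside protein-coding genes. Its signal of 37.1 exceeded that of only 1.76% of conservative peaks, so it was among the weakest called. For Ir48c, which lies inside the gene ths, the distance was 750 bp in the conservative list, 721 bp in replicate 1 and 775 bp in replicate 2, and the summit was 123 bp from a start of ths, which encodes a fibroblast growth factor.

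The other thresholded lists gave the same picture. In the optimal list, with 5607 summits, Gr97a was again the sole bound receptor gene, while 23.2% of all genes were bound. In the thresholded list of replicate 1, with 3126 summits, 0 of 179 receptor genes were bound. At this count the share could be as high as 1.68% by the limit of 3 counts. The Wilson interval reaches 2.10%, against 14.3% of all genes. In that of replicate 2, with 6003 summits, Gr97a was bound, against 23.2% of all genes. These lists share reads and are not independent of each other.

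The ranked lists, which also hold peaks below the threshold on the irreproducible discovery rate (a measure of how well peak ranks repeat), placed summits at more receptor genes, yet fewer than at other genes. In the conservative ranked list 3 Or, 4 Gr and 3 Ir genes had a summit within 500 bp, 10 genes or 5.59% (95% Wilson interval 3.06% to 9.98%), against 51.4% of all genes and 18.2% of all genome positions. The optimal ranked list had summits at 3 Or, 2 Gr and 6 Ir genes, against 56.8% of all genes. Replicate 1's ranked list had them at 2 Or, 5 Gr and 5 Ir genes, against 47.3% of all genes, and replicate 2's at 6 Or, 7 Gr and 5 Ir genes, against 64.1% of all genes. In each of the 4 ranked lists the share in every receptor family was below the share of all genome positions within 500 bp of a summit, which ran from 17.5% to 28.7%. The Wilson intervals of single families reached that share for Ir genes in the optimal ranked list and for Gr and Ir genes in the ranked list of replicate 1.

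**Figure D2:**
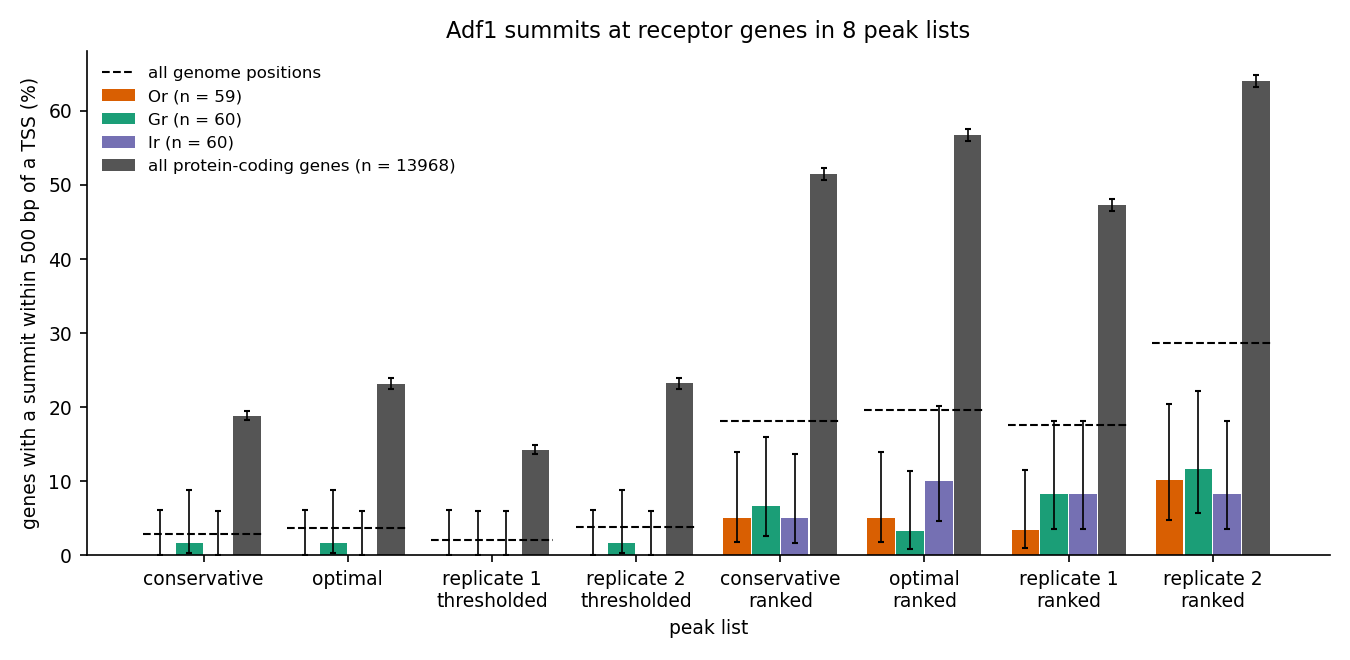
Share of genes with a summit within 500 bp of a TSS, in percent, for the Or, Gr and Ir families and all protein-coding genes in each of 8 peak lists; bars show the share, whiskers the 95% Wilson interval for counting error, and dashed lines the share of all genome positions within 500 bp of a summit. Receptor bars stand below the bar for all genes in every list, with 1 of 179 receptor genes against 18.9% of all genes in the conservative list.

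In the ranked lists of the replicates, a summit within 500 bp of a receptor gene was mostly present in 1 replicate and not in the other. A summit just past that limit counts as absent. Gr97a, for example, was counted for replicate 2 alone, at 480 bp, though replicate 1 had a summit at 587 bp. Of the 12 receptor genes with a summit in the ranked list of replicate 1 and the 18 in that of replicate 2, only 2 were in both, Gr77a and Ir75d, which is 16.7% of the first set and 11.1% of the second. Over all genes 5962 were in both, 90.3% of those of replicate 1 and 66.6% of those of replicate 2. Neither replicate's ranked list had a summit at 151 receptor genes, or 84.4%, against 31.3% of all genes. In none of the 8 lists did a summit lie within 500 bp of 147 receptor genes, 82.1% of them, made up of 50 Or, 47 Gr and 50 Ir genes. The same held for 29.8% of all protein-coding genes.

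Gr77a and Ir75d had the strongest signals after Gr97a in the conservative ranked list. At Gr77a, which overlaps the gene CG13252, the summit was 2 bp from the TSS with a signal of 36.5, and the replicates had summits 83 bp away with a signal of 13.9 and 3 bp away with a signal of 13.1. At Ir75d, an antennal receptor gene, it was 150 bp downstream with a signal of 36.0. Replicate 1 had one 55 bp from the Ir75d start, with a signal of 18.2, and replicate 2 had its nearest at 66 bp. The optimal ranked list held no summit within 500 bp of Gr77a, its nearest being 2912 bp away, so this site depended on the list used. Next in signal were Ir68a, a gene of moisture-sensing neurons, with 23.1 at 386 bp, and Gr10a and Or10a, which share a start, with 20.8 at 459 bp.

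Summits at receptor genes were weak even within the ranked list. The 9 distinct summits at the 10 receptor genes had a median signal of 20.8, against 51.3 for the 9571 summits within 500 bp of any gene start and 31.5 for the whole conservative ranked list. Of these 9 summits 1, that of Gr97a, passed the authors' threshold, against 27.3% of the summits at all gene starts.

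Distances to the nearest conservative summit were long in every family. The median was 27601 bp for Or, 12975 bp for Gr and 17602 bp for Ir genes, and 21189 bp for all receptor genes, with quartiles of 8183.5 and 43411.5 bp. Over all protein-coding genes the median was 8687 bp, with quartiles of 1906 and 23172 bp. In this list Gr genes lay nearest and Or genes farthest, but the order changed with the list: Gr genes were farthest with peaks of signal above the median, at 42897 bp, and Ir genes in the conservative ranked list, at 6032.5 bp. Their quartile ranges overlapped widely, from 7012 to 45036 bp for Gr, from 8164 to 36063 bp for Ir and from 15121 to 48682 bp for Or genes.

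**Figure D3:**
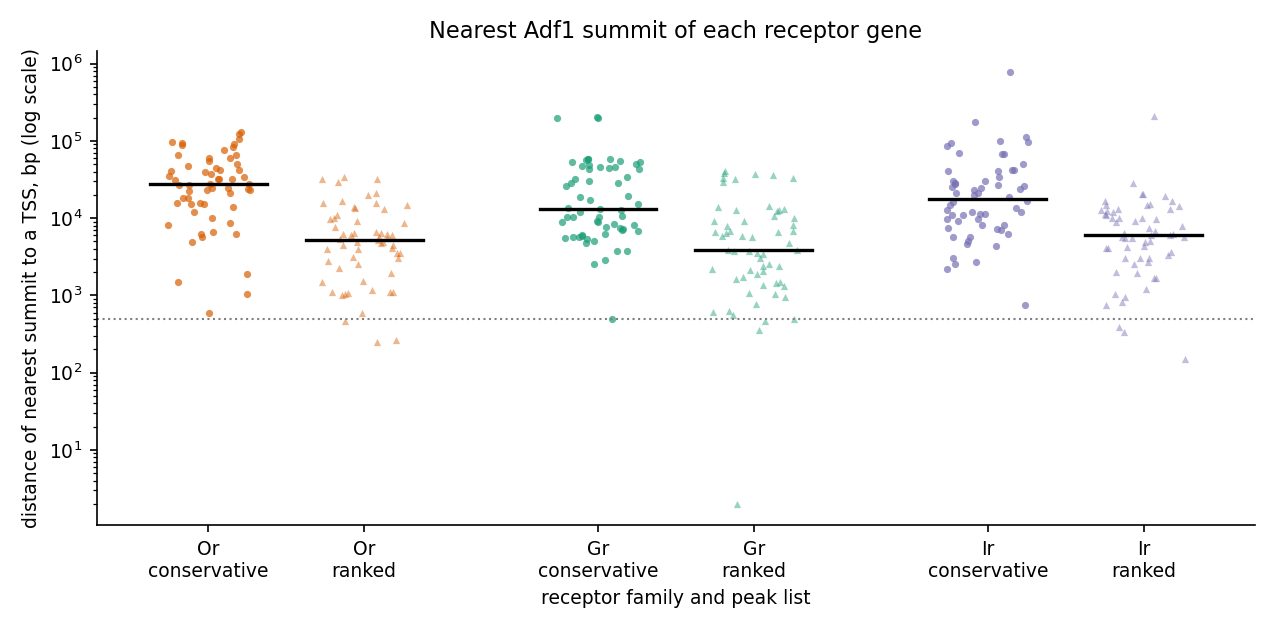
Distance in bp (log scale) from each receptor gene's TSS to its nearest summit in the conservative list (circles) and in the conservative ranked list (triangles), for 59 Or, 60 Gr and 60 Ir genes; black bars mark medians and the dotted line 500 bp. In the conservative list only Gr97a, at 495 bp, is under the line, while 10 genes are under it in the ranked list.

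In the conservative list the share of receptor genes was below that of genome positions up to 20 kb, and below that of all genes at each distance computed, up to 50 kb. Within 5 kb of a conservative summit lay 10.1% of receptor genes, against 37.6% of all genes and 20.2% of all genome positions. At 10 kb the shares were 30.2%, 53.0% and 33.0%, and at 20 kb they were 48.6%, 71.1% and 49.5%. At 20 kb the receptor genes thus came close to the genome positions, and at 50 kb, with 79.9% against 70.7%, their share was higher, though still below the 89.2% of all genes. Within 10 kb lay 40% of Gr, 31.7% of Ir and 18.6% of Or genes. In the ranked list 11.2% of receptor genes had a summit within 1 kb, against 58.3% of all genes and 29.1% of positions.

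**Figure D4:**
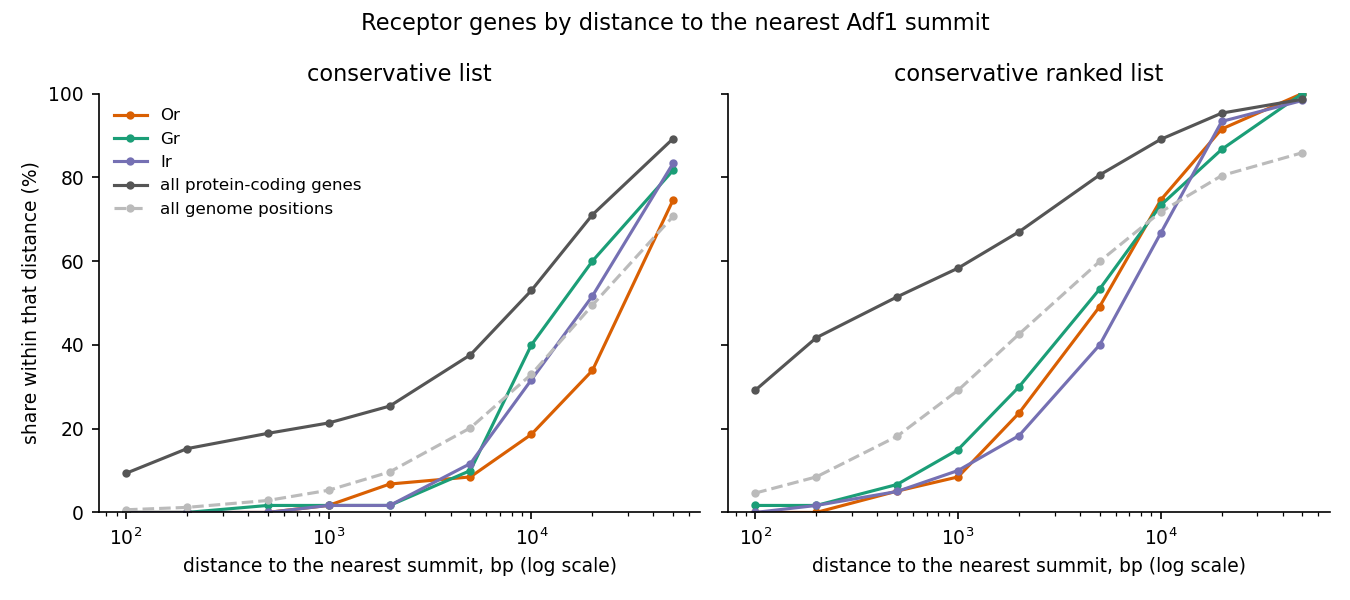
Share of genes or genome positions, in percent, within a given distance in bp (log scale) of the nearest summit, for Or, Gr and Ir genes, all protein-coding genes and all genome positions, in the conservative list (left) and the conservative ranked list (right). The receptor families run below all genome positions at 5 kb and less in both lists, and all genes run above the receptor families up to 20 kb.

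Among the Or genes, those nearest to a conservative summit after Or88a were Or9a at 1030 bp, Or46a at 1495 bp and Or85f at 1911 bp. Each of these 3 summits was at the start of another gene, 30 bp from Neb-cGP, 24 bp from CG18011 and 48 bp from CG34117. In the thresholded list of replicate 2 the nearest summits of Or9a, Or46a and Or85f were at 1028, 1504 and 1911 bp. That of replicate 1 had them at 13110, 14061 and 3126 bp, while its ranked list had summits at 983, 1490 and 1912 bp. The farthest Or genes were Or19b at 129945 bp, Or35a at 123128 bp and Or13a at 106429 bp. Replicate 2's own list had a summit 6429 bp from Or35a, while replicate 1's nearest was at 123193 bp. For Or19b the 2 replicates differed as well, with 64731 bp in replicate 1 and 129982 bp in replicate 2. The sequence around the starts of Or19b and Or19a is repeated: only 18.8% and 18.2% of its 32-base words occur once in the assembly. Of 25 Or genes with known use in the larva 0 were bound, with distances of 4872 to 123128 bp, against 18.9% of all genes. In the conservative ranked list 1 of them had a summit, against 51.4%.

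Or67d, the receptor for the male pheromone cis-vaccenyl acetate, stood apart in another way. Of the 4370 conservative summits, 10 had a receptor gene as the gene with the nearest start, which is 0.229%, while receptor genes are 1.28% of all genes. These 10 summits named 2 genes. One summit belonged to the bitter receptor gene Gr93a at 5119 bp, and 9 belonged to Or67d at 15163 to 52368 bp, with a highest signal of 1663. These summits were far from the Or67d start, and no other protein-coding start was nearer.

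Among the Gr genes the 9 sugar receptor genes had a median distance of 8360 bp, near the 8687 bp of all protein-coding genes. In the conservative list 0 of these 9 genes were bound, against 18.9% of all genes. Their Wilson interval reaches 29.9%, above the share of all genes, so this set too is too small to show a difference. Gr5a, the trehalose receptor gene, lay 2567 bp from a summit, with 2520 bp in replicate 1 and 2558 bp in replicate 2. Gr61a was at 3710 bp, with a summit 80 bp from the start of CG13901. The 6 clustered sugar receptor genes shared 1 nearest summit, 19 bp from the start of CG11593. It was 4702 bp from Gr64f, 6734 bp from Gr64e, 8360 bp from Gr64d, 10237 bp from Gr64c, 11896 bp from Gr64b and 13732 bp from Gr64a. These distances mark their order along the cluster and are not separate measurements. Gr43a, the fructose receptor gene, was at 58448 bp, while the own list of replicate 2 had a summit at 11278 bp.

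Of the carbon dioxide receptor genes, Gr21a was 8866 bp from a conservative summit, with 64307 bp in replicate 1 and 8866 bp in replicate 2. Gr63a was at 32108 bp, with 32039 and 29029 bp in replicates 1 and 2. Neither had a summit within 500 bp in the conservative ranked list, though the ranked list of replicate 2 had one 232 bp from Gr63a. Of 11 bitter receptor genes 0 were bound in the conservative list, at 3802 to 59256 bp, against 18.9% of all genes. The Wilson interval for these 11 genes reaches 25.9%, above the share of all genes, so this set is too small to show a difference. After Gr97a and Gr5a the nearest Gr gene was Gr47b at 2885 bp. The farthest were the neighbours Gr36a, Gr36b and Gr36c, at 202448, 200294 and 198728 bp.

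Among the Ir genes the co-receptors were not bound in the conservative list. Ir25a, the most widely shared co-receptor, was 2552 bp from a summit, with 2612 bp in replicate 1 and 2551 bp in replicate 2. That summit, with a signal of 375, was 147 bp from the start of tank. The optimal ranked list and the ranked list of replicate 2 had a further summit 195 bp upstream of Ir25a, but replicate 1 had its nearest at 2612 bp. Ir8a was at 7026 bp in the conservative list, with 10919 and 13044 bp in replicates 1 and 2. Ir76b was at 7299 bp, with 7117 and 7126 bp. The optimal ranked list had a summit 272 bp downstream of the Ir76b start, with a signal of 18.6, while the nearest in the ranked lists of replicates 1 and 2 were 2533 and 7126 bp away.

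The other Ir genes named for distance were Ir68b, at 2213 bp with the summit 31 bp from the start of yps, and the 3 farthest, Ir41a at 774392 bp, Ir40a at 173571 bp and Ir20a at 111082 bp. For Ir40a, a gene of dryness-sensing neurons, 85.3% of the 32-base words around its start were unique in the assembly. Of 17 antennal Ir genes 0 were bound in the conservative list, against 18.9% of all genes, and 2, Ir75d and Ir68a, had a summit in the conservative ranked list, against 51.4%. In the optimal ranked list 5 of the 17 had one, with Ir25a, Ir76a and Ir76b added, against 56.8% of all genes. Of 4 Ir genes for temperature and humidity, which the antennal set contains, 0 were bound and 1 had a summit in the conservative ranked list. In all, 176 of 179 receptor genes had at least 90% unique words around the start, 98.3% against 95.6% of all genes.

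The nearest summit of a receptor gene usually lay near the start of a gene outside the 3 families, which need not be the adjacent gene. For 174 of 179 receptor genes, 97.2%, the nearest conservative summit was closer to the start of a gene outside the 3 families. For 132 of them it was within 500 bp of that start. The 179 genes had 122 distinct nearest summits between them. Only 10 of the 4370 conservative summits had a receptor gene as the nearest start, so the 97.2% was largely set in advance. No share over all genes stands beside the 174 and the 132. The closest genes outside the families numbered 138, of which 18 were bound in the conservative list, 13.0% with a 95% Wilson interval of 8.41% to 19.7%. In the conservative ranked list 61 of these neighbours, 44.2%, had a summit, against 10 of 179 receptor genes. The 18.9% and 51.4% over all genes stand beside these shares.

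Receptor genes are compact and often isolated, so genes of like arrangement were set beside them. A single TSS was annotated for 167 receptor genes, 93.3%, against 73.3% of all other genes, and 13.3% of those others were bound in the conservative list. Receptor genes with no other gene's TSS within 1000 bp numbered 144, and 0 were bound, against 14.8% of other genes so placed. Of the 35 receptor genes with such a neighbour 1 was bound, Gr97a, or 2.86%, against 24.8% of other genes. The closest class had a single TSS, no other TSS within 1000 bp and a length between the quartiles of the receptor genes. It held 74 receptor genes, of which 0 were bound and 2, or 2.70%, had a ranked summit, and 1324 other genes, of which 6.87% were bound and 31.0% had a ranked summit. No interval was computed for the 0 of 74, and the gap to 6.87% is smaller than that to the 18.9% of all genes.

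**Figure D5:**
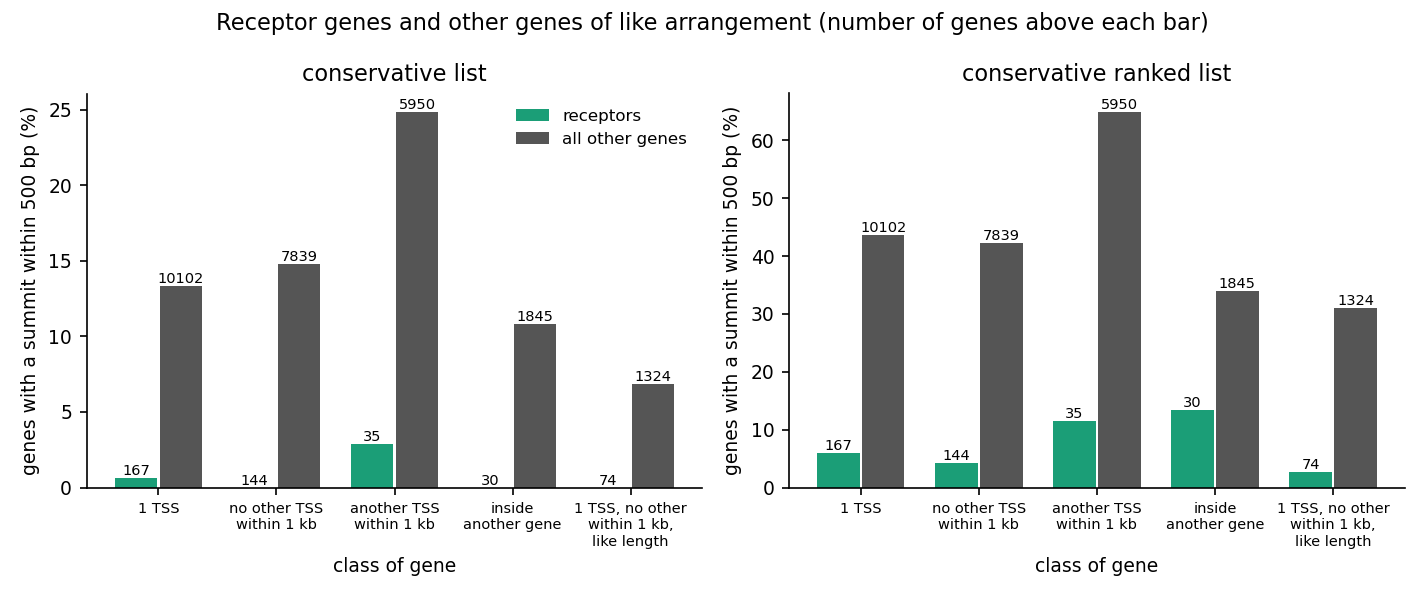
Share of receptor genes (green) and all other protein-coding genes (grey) with a summit within 500 bp of a TSS, in percent, by class of arrangement, in the conservative list (left) and the conservative ranked list (right), with the number of genes above each bar. In the class of genes with a single TSS, no other TSS within 1 kb and like length, 0 of 74 receptor genes and 6.87% of 1324 other genes were bound in the conservative list.

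The gene bodies were also free of summits. A conservative summit lay within the span of 0 of 179 receptor genes, against 11.6% of all genes, which were longer, with a median of 2164.5 bp against 1691 bp. Summits of the conservative ranked list lay within 14 receptor genes, 7.82%, against 41.8% of all genes. Another gene's span held 30 receptor genes, of which 0 were bound, against 10.8% of other genes so placed. Within 10 kb of another receptor gene lay 80 members, and 99 lay alone.

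Receptor genes were common in the parts of the arms without summits. Between successive conservative summits there were 264 stretches of at least 100 kb. Arm ends beyond the outermost summits were not counted, so Ir41a and Ir40a are in none of these stretches. Of these, 53 held a receptor gene, and together they held 102 of the 179, or 57.0%, against 27.7% of all genes. The 3 families were alike in this, with 32 Or, 35 Gr and 35 Ir genes. By arm, there were 31 receptor genes on 2L, 46 on 2R, 35 on 3L, 42 on 3R and 25 on X, and the bound gene was on 3R. Over all genes the bound share varied little between these arms, from 18.3% on 2R to 20.1% on X.

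Promoter sequence was read for GCNGCNGC, a run of GC-leading triplets of the kind known for Adf1 sites, whose letters are the same on both strands. Windows reaching 50 bases to each side of conservative summits held it in 16.0% of cases (699 of 4370), against 4.78% of windows centred 500 bp to each side. In promoters, taken from 250 bases before to 50 bases after a gene's outermost start, it was found in 7 of 179 receptor genes, 3.91%, against 9.22% of all genes. The 7 were Or65a, Gr28b, Gr33a, Gr61a, Gr64a, Gr98d and Ir94e, and 0 of them were bound, with distances of 3710 to 34504 bp. Of all genes with a match 34.7% were bound, and of those without one 17.3%. Base composition differed little, with a median GC content of 39.3% in receptor promoters and 38% in all promoters.

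The 250 bases before the start are given for 1 gene of each family with a match, with the match in capitals, to show that these letters occur at receptor genes that had no summit.
Or65a, before the start, chr3L:6320361-6320610, forward strand: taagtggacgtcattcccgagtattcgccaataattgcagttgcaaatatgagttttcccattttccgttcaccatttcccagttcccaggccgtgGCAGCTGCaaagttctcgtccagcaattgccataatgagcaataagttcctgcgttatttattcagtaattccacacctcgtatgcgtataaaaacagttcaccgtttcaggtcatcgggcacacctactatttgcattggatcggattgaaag
Gr64a, before the start, chr3L:4026519-4026768, forward strand: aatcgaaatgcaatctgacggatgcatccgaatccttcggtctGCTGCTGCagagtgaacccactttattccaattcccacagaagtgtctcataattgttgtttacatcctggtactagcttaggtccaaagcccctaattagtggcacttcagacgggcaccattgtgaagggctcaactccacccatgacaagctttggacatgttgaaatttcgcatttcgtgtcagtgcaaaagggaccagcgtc
Ir94e, before the start, chr3R:23405259-23405508, forward strand: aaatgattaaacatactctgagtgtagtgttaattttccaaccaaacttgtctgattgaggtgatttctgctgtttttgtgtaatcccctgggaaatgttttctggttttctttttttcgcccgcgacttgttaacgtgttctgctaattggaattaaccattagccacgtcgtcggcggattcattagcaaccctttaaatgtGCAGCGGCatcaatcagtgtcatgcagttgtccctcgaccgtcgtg

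Other genes of chemosensation and sensory development, from lists of known function, were counted beside the shares over all genes, 18.9% in the conservative and 51.4% in the conservative ranked list. Of 51 genes for odorant-binding proteins, which carry odours in the fluid around the neurons, 1 was bound, Obp99b, with a summit at 266 bp and a signal of 89.3. Of 5 transport and accessory genes 0 were bound, among them Orco, the odorant co-receptor gene, at 17601 bp. At Orco the ranked lists differed, with a summit 3 bp away in replicate 2 and 771 bp away in replicate 1. Of 20 CheA and CheB genes and of 29 genes for ppk channels 0 were bound. In the conservative ranked list 6 odorant-binding protein genes, 11.8%, had a summit, and 1 of the 5 transport and accessory genes did. There 2 CheA and CheB genes, 10%, and 2 ppk genes, 6.90%, had one. Low shares in the ranked list were thus not particular to the receptor genes.

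Of 13 ionotropic glutamate receptor genes, the synaptic relatives of the Ir family, 1 was bound, Nmdar1, which encodes a subunit of the NMDA receptor. Its summit was 218 bp from the start in the conservative list and in the list of each replicate, with a conservative signal of 1561. In the conservative ranked list 6 of these 13 genes, 46.2%, had a summit, a share near the 51.4% of all genes, whereas 3 of 60 Ir genes did. Their median distance to a conservative summit was nevertheless 37941 bp, longer than the 17602 bp of the Ir genes.

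Of 20 transcription factor genes of chemosensory organs 6 were bound, 30% with a 95% Wilson interval of 14.5% to 51.9%, which includes the 18.9% of all genes. In the conservative ranked list 9 of them, 45%, had a summit, against 51.4% of all genes. The 6 bound genes were pros at 117 bp with a signal of 1260, pdm3 with a signal of 1157, dac with 880, vvl with 215, Xbp1 with 193 and acj6 with 159. The products of acj6 and pdm3 are POU-domain factors known for the choice of odorant receptors in olfactory neurons. All except acj6 also had a summit within 500 bp in both replicates' own thresholded lists. For acj6 the summit was at 244 bp in replicate 2, while the thresholded list of replicate 1 had its nearest at 6379 bp. The ranked list of replicate 1 did hold a summit 212 bp from an acj6 start.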

How the data were processed

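ChIP-seq of Adf1-eGFP from whole embryos was available as peak lists for 2 biological replicates and for both together, in 4 thresholded and 4 ranked lists. Per the deposited file lists, the authors derived them on dm6 from alignments and a control file, with aligner and peak caller not given in the sources used here. The deposited score is the authors' scaled irreproducible discovery rate (IDR), with a lowest value of 830 in the conservative list. The deposited signal is the authors' caller value, of unstated scale, and was used to describe and rank peaks within 1 list. The deposited −log10 q values were not used in any result. The authors' summit offset gave the summit. The combined ranked lists were matched to their thresholded lists by identical peaks, and each replicate's lists were told apart by sample and list type.

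Genes and TSSs were those of Ensembl release 115 (BDGP6.54), with 19275 TSSs on 7 arms; all 179 members have the same arm, start and end in RefSeq, whose Release 6 assembly gave the sequences. Bound means a summit within 500 bp of a TSS. Counts carry 95% Wilson intervals, and a count of 0 a limit from 3 counts. No test was made, since there is 1 group. Depth per sample is unknown. Windows that an annotated UTR touches were not printed. Distances were tested on simulated data. Matplotlib 3.10.9 drew the figures, and SciPy 1.17.1 gave the intervals, with NumPy 2.4.6 under Python 3.11.15.

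Members and lists were chosen with earlier results of these data known. Named genes were members bound in a thresholded list, the 5 members with the strongest summit in the conservative ranked list, the 3 nearest and 3 farthest of each family, members at 400 to 1000 bp, every co-receptor, carbon dioxide and sugar receptor, and up to 4 bound genes of each pathway list; Orco, Or67d, Gr93a, Ir76a, Or85f, Or19a, Xbp1 and acj6 and the genes with a motif match were named after their values were seen. Alternatives were the optimal list, each replicate alone, peaks with signal above the median of the list, the ranked list, other distances, overlap in place of summit distance, outermost starts, nearest-gene assignment and 1 gene per 10 kb.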

Additional observations from a re-analysis of the deposited data

How the results depend on the processing

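The count of bound receptor genes, 1 in the conservative list, remained 1 with the optimal list, with outermost starts and with 1 gene per 10 kb. Of all genes 23.2% were bound with the optimal list and 16.1% with outermost starts. Leaving out each replicate gave 0 to 1 for all receptor genes and 0 to 1 for Gr genes, against 14.3% to 23.2% of all genes. Without replicate 2, that is in the list of replicate 1 alone, the count was 0. It was also 0 with peaks of signal above the median of the list, at 200 bp, by overlap of the peak with a TSS and with the nearest gene alone, for all receptor genes and for Gr genes. The shares of all genes at these settings were, in the same order, 9.71%, 15.2%, 14.6% and 15.3%. At 1000 bp the count was 3, with 1 Or gene and 1 Ir gene added, against 21.4% of all genes. In the ranked list the count was 10, made up of 3 Or, 4 Gr and 3 Ir genes, against 51.4% of all genes. With peaks of signal above the median the median distance was 34785 bp for all receptor genes, 34618 bp for Or, 42897 bp for Gr and 26667.5 bp for Ir genes. Over all protein-coding genes the median at this setting was 20007 bp. In the ranked list the median distances were 5496, 5240, 3837 and 6032.5 bp, against 432 bp over all protein-coding genes. The order of the 3 families by median distance changed in both. Leaving out each replicate gave 15687 to 25739 bp for all receptor genes, 24799 to 31399 bp for Or, 12315 to 16359.5 bp for Gr and 12770.5 to 24398 bp for Ir genes. Over all protein-coding genes it gave 6455 to 12714 bp. The cause of these shifts was not tested beyond what list length and distance set by construction. No paired analysis was possible because there is 1 group and the result comes from no test. The control behind the lists and read counts were not analysed here, and with 2 replicates weak binding at receptor genes below the depth of these libraries was not detectable.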

Other observations

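Relatives of the receptor genes that the naming rule leaves out were examined after the members. Of 10 protein-coding gustatory-receptor-like genes (symbols beginning with Grl), 0 were bound in the conservative list, with distances of 3196 to 197128 bp, against 18.9% of all protein-coding genes. In the conservative ranked list 2 of the 10 had a summit within 500 bp, Grl65a at 2 bp and GrlHz at 90 bp, against 51.4% of all genes. Of 7 receptor pseudogenes 0 were bound, at 9044 to 60862 bp, and 0 had a summit in the conservative ranked list, beside the same shares over all genes. Sets of 7 and 10 genes are small, and no interval was computed for them.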
